A study of Mus musculus with 16 samples.

Results

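The transcriptome of cultured neural stem cells (NSCs) with and without a functional copy of Tsc2 was compared in total RNA. All 14967 genes with a mean normalized value of at least 10, of 24946 in the table, were examined in 4 mutant and 4 wild-type total RNA libraries, out of 16 libraries in the series. Neonatal mouse brains supplied the cells, from the V-SVZ (ventricular-subventricular zone) that lines the lateral ventricle and holds stem cells. The mutant pups were homozygous for a conditional Tsc2 allele (Tsc2tm1.1Mjg, labelled Tsc2 mutant/mutant) and the controls were labelled Tsc2 wild type/wild type. Per the study's methods, a ROSA26-tdTomato reporter and Nestin-CRE-ERT2, a Cre that the Nestin promoter drives and tamoxifen activates, were crossed in, and pups were injected with tamoxifen a week before dissection. Whether each control carried the Cre is not given in the sources used here, nor is the animal, litter or sex behind each culture, and the p-values therefore cover only how far cultures of a genotype spread. The Nestin promoter drives recombination in NSCs and their relatives, so other cells of the dissected tissue could keep an intact Tsc2. All cultures were grown in EGF and FGF on laminin and poly-D-lysine, passaged once, and given cycloheximide shortly before lysis, so both genotypes carry that treatment.

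Tsc2 encodes tuberin, which together with hamartin (Tsc1) switches off the small GTPase Rheb. Without tuberin Rheb stays active and turns on mTORC1, a kinase complex on the lysosomal surface that raises protein, nucleotide and lipid synthesis and restrains autophagy and the lysosomal gene programme. V-SVZ NSCs are astrocyte-like cells that give rise to neuroblasts and oligodendrocyte precursors, and in people loss of the TSC genes causes tuberous sclerosis complex, with growths along the ventricle wall.

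The values were normalized read counts, in which a library's smallest step gave an estimated depth of 24.7 to 139 M reads. Mutant culture 3 stood apart. It had 21145 genes above 0 at an estimated depth of 54.4 M reads, against 16441 to 18342 in the other 7 libraries, including 992 of 1472 olfactory, vomeronasal and trace amine receptor genes, which sensory neurons of the nose use. The other mutant cultures had 275, 122 and 87 of these receptor genes above 0 and the wild-type cultures 25 to 55. In mutant culture 3, 40 of them were at 10 or more, against 5 to 7 in each other library, and 6 receptor genes passed the filter for testing. Counts of at least 3 list members that moved by over 1.5 times without this library are given without it as well.

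On principal components of the log2 values, the first (55.5% of the variance) separated the genotypes, with wild-type cultures at -25.85 to -49.96 and mutant cultures at 39.4, 14.4, 67.9 and 30.9. The second (12.1%) separated mutant cultures 2 and 4, at -35.7 and -22.4, from mutant culture 3 at 25.6. All 16 NSC markers, such as Nes and Sox2, were at 10 or more in every library. The Y-linked genes Ddx3y, Eif2s3y, Kdm5d and Uty were between 446 and 1836 in wild-type cultures 1 to 3 and mutant culture 1, between 30.6 and 87.1 in wild-type culture 4 and under 15 in mutant cultures 2 to 4. With the mean of these genes as a covariate, 528 genes passed as higher and 535 as lower in mutants, so the Y-linked difference and the genotype cannot be fully told apart. With this covariate 49 of the named genes that had passed no longer did, Col6a1, C3, Ttr and Tnf among them, and of 36 counts of list members of at least 10, 35 moved by over 1.5 times.

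**Figure D1:**
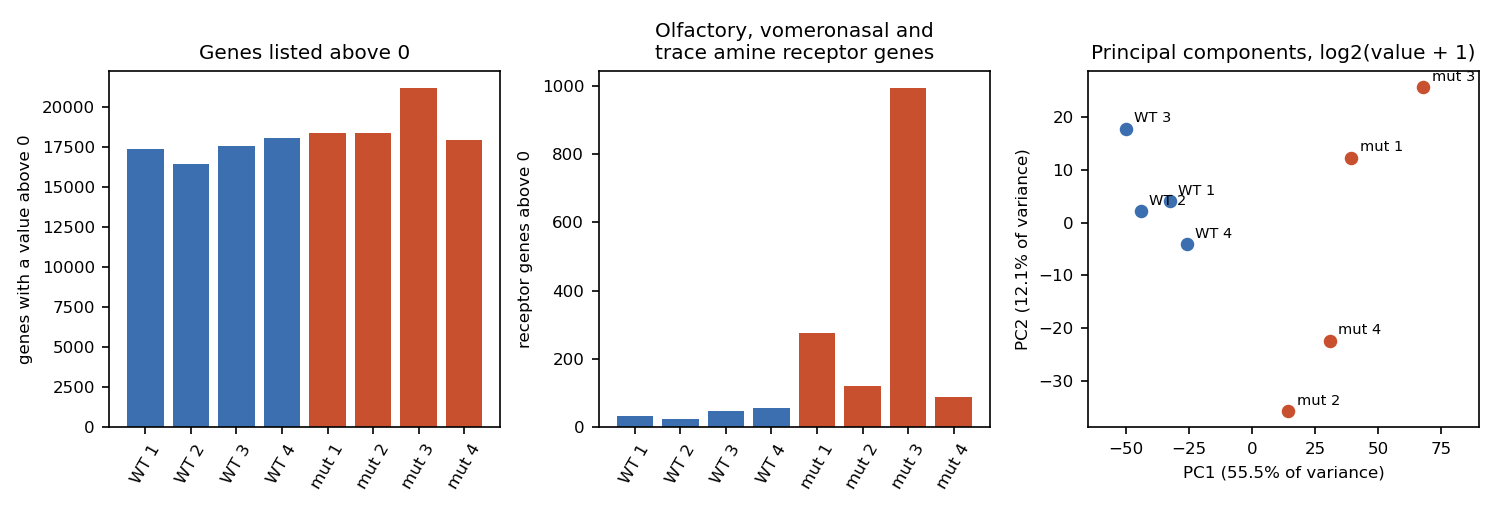
Left and middle, genes and sensory receptor genes with a value above 0 in each total RNA library (WT, wild-type; mut, mutant; bars start at 0). Mutant culture 3 had the highest bar in both, at 21145 and 992. Right, each library on the first 2 principal components of log2(value + 1), with wild-type cultures on the left and mutant cultures on the right.

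Loss of Tsc2 was accompanied by small decreases in many abundant transcripts and by larger increases in less abundant ones. Of the 14967 genes, 2944 were higher in mutant cultures (19.7% of those tested) and 3091 were lower (20.7%), by limma on log2(value + 1) at an adjusted p of 0.05. The genotypes did not overlap for 2665 higher genes (17.8%) and 3044 lower genes (20.3%). The median log2 change was 0.72 among genes that rose and -0.50 among those that fell. At least 2-fold changes passed the test for 919 higher and 173 lower genes, and at least 4-fold changes for 132 and 27. Scaling by library totals alone moved the median of all genes from 0.01 to 0.11 on the log2 scale and the calls to 3838 higher and 2263 lower.

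The balance of rises and falls depended on how abundant a transcript was. With genes divided into 5 equal bins by mean value, in the lowest bin (10.1 to 142), 21.5% rose and 4.41% fell, whereas in the highest bin (5597 and above) 15.7% rose and 33.4% fell. Mutant culture 3 was the one farthest from wild type for 63.1% of the genes that rose and 83.9% of those that fell, and mutant culture 2 was the nearest for 62.2% and 65.2%. Without culture 3 the calls were 2194 higher and 2359 lower, the lowest bin had 15.1% higher and 3.52% lower, and at least 2-fold changes numbered 666 higher and 112 lower. Each mutant culture had more sensory receptor genes above 0 (87 to 992) than any wild-type culture (25 to 55). The part of such low-level signal in the rises of less abundant transcripts was not tested. Transcript length went with the direction as well. Among the shortest of 5 equal bins of transcripts (up to 1132 bases) 14.5% rose and 30.2% fell, and among the longest (3902 bases or more) 28.1% rose and 10.8% fell. The part of RNA quality in this was not tested. The longest minus the shortest bin, as a median log2 deviation, was 0.174, 0.118, 0.201 and 0.00332 in mutant cultures 1 to 4 and between -0.0804 and -0.204 in wild-type cultures.

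**Figure D2:**
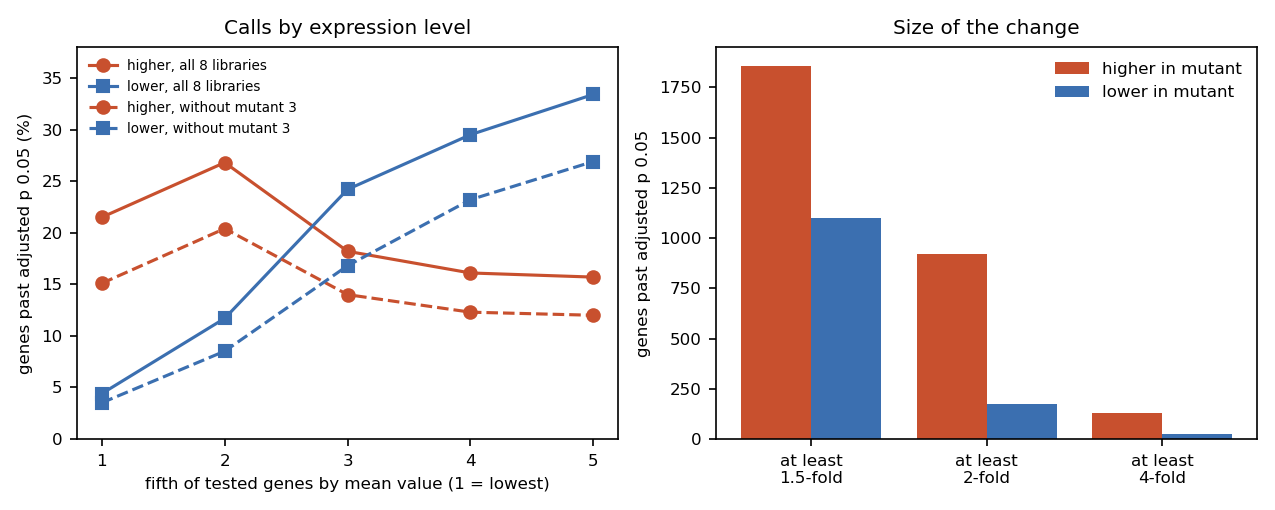
Left, the share of tested genes past an adjusted p of 0.05 in each of 5 equal bins of mean value, with all 8 libraries (solid) and without mutant culture 3 (dashed), where lower genes outnumber higher ones from the middle bin upwards in both. Right, counts of genes past the same threshold with at least 1.5-fold (1858 higher, 1100 lower), 2-fold (919, 173) and 4-fold (132, 27) changes.

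With the mean at 100 or above and no overlap required, the 12 genes that rose with the smallest p-values mixed glial, adhesion and lysosomal functions. Mbp, which encodes myelin basic protein, was at 1531, 1330, 1217 and 1550 in wild-type and 6579, 6087, 6894 and 5702 in mutant cultures, a rise of 2.17 ± 0.10 SE on the log2 scale (limma adjusted p = 6.9e-06). Every mutant culture was above every wild-type culture. Atp6v0d2, an alternative subunit of the lysosomal proton pump known from macrophages and osteoclasts, went from 18.4, 14.9, 18.6 and 24.7 to 163, 388, 269 and 314 (log2 change 3.77 ± 0.28, limma adjusted p = 0.000291), with no overlap between the genotypes. The cell surface genes Mdga1 (log2 change 1.24 ± 0.11), Cadm2 (1.56 ± 0.14), Cdh11 (0.87 ± 0.08) and the matrix gene Edil3 (1.44 ± 0.14) rose as well. Cdh11, an adhesion cadherin, stood at 1585, 1484, 1527 and 1690 in wild-type and 2649, 2913, 2937 and 3002 in mutant cultures. Noxo1, which organizes an NADPH oxidase, was at 136, 148, 126 and 158 and 415, 422, 407 and 484 (log2 change 1.60 ± 0.13), and the complement protease gene Masp1 at 1229, 1475, 1414 and 1362 and 2508, 2415, 2468 and 2538 (0.86 ± 0.08). The noncoding transcripts Cep83os (2.26 ± 0.19) and D330041H03Rik (1.60 ± 0.15) and Ctsd, the gene of lysosomal cathepsin D (1.12 ± 0.11), rose too.

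Among the 12 genes chosen the same way that fell, the interferon-responsive genes Gbp3, Ifi44, Isg15 and Rtp4, described further on, stood beside genes of amino acid and translation control. Rab26, a vesicle GTPase gene, fell (log2 change -6.68 ± 0.12) from 9311, 10263, 12037 and 9811 to 87.3, 98.0, 114 and 101. Pde9a, which encodes a cyclic GMP phosphodiesterase, was at 888, 1096, 1129 and 1355 in wild-type and 260.5, 407, 274 and 332 in mutant cultures and fell (log2 change -1.81 ± 0.17, limma adjusted p = 0.000911). Bcat1, the cytosolic branched-chain amino acid transaminase gene, went from 3102, 2861, 4030 and 2593 to 1139, 1385, 823 and 1010 and fell (log2 change -1.53 ± 0.17, limma adjusted p = 0.00182). No mutant culture reached the lowest wild-type culture for any of these. Eif4ebp1, the translational repressor that mTORC1 phosphorylates, was at 13037, 13722, 16126 and 12054 against 7484, 8001, 6956 and 7604 and fell (log2 change -0.86 ± 0.10, limma adjusted p = 0.00182). Fam136a, a chromosome 6 gene of a mitochondrial protein, fell (log2 change -1.13 ± 0.13), as did Eef1akmt4, a lysine methyltransferase gene (-0.98 ± 0.12), and Klhdc4 (-0.91 ± 0.11).

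**Figure D3:**
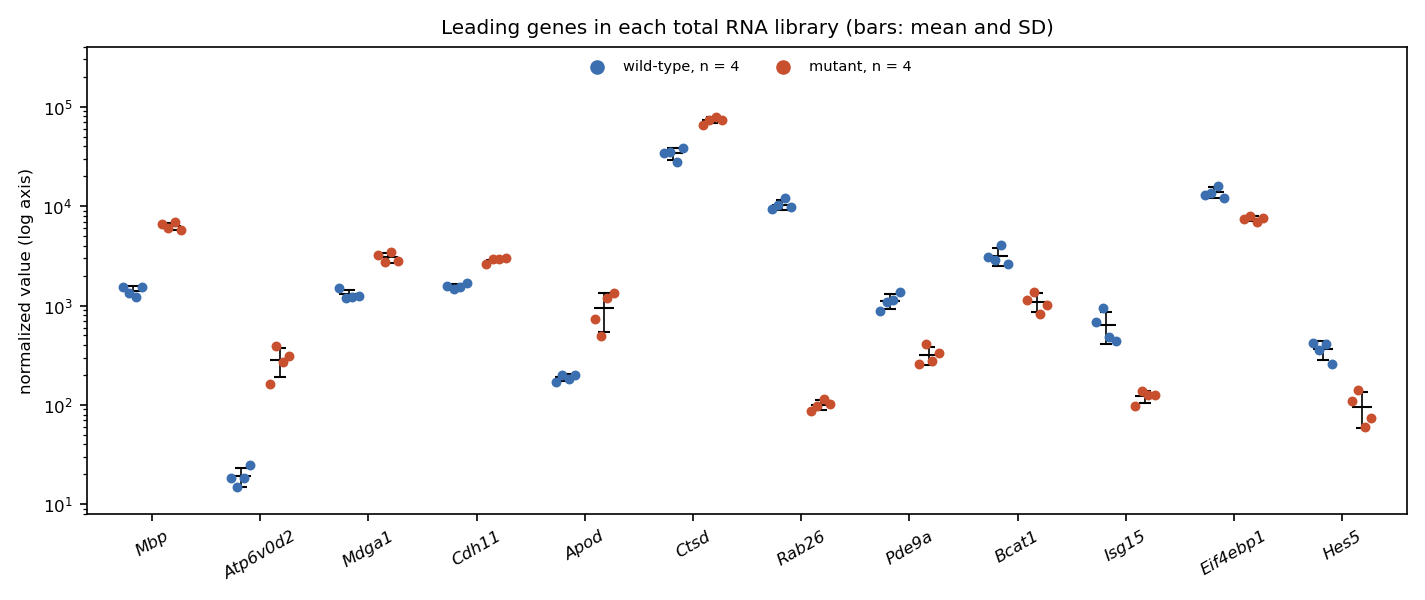
Normalized value of 12 genes in each total RNA library on a log axis, with the mean and SD of 4 wild-type and 4 mutant cultures as black bars. The genotypes do not overlap for any of the 12. Mbp to Ctsd are higher and Rab26 to Hes5 lower in mutant cultures.

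Of these 24 genes with the smallest p-values, 5 lay on chromosome 17 within 7 megabases of Tsc2 (GRCm38). Rab26 (24529054 to 24533747) and Noxo1 (24696234 to 24700530) were each 0.08 megabases from it between gene centres, D330041H03Rik was at 0.20, Mdga1 at 5.24 and Pde9a at 6.82 megabases. Among the 100 genes with the smallest p-values 10 were within 10 megabases of Tsc2, a window that held 2.02% of all tested genes. The others were Rnps1, a splicing factor gene that fell (log2 change -0.93 ± 0.12), Telo2, a gene of mTOR complex assembly that fell (log2 change -0.82 ± 0.11), the calcium release channel gene Itpr3 (1.70 ± 0.22), Fam234a (0.95 ± 0.12) and the cholesterol exporter gene Abcg1 (1.45 ± 0.18). Over the whole window the shares were 17.5% higher and 24.5% lower, near those of all genes. Tsc2 itself was at 7836, 6817, 6232 and 6701 in wild-type and 7076, 6811, 6190 and 5592 in mutant cultures (log2 change -0.10 ± 0.10, limma adjusted p = 0.422). Its summed reads overlapped between genotypes, and a deletion of part of a gene need not lower them, so they do not check the labels.

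Adhesion genes rose as a family. Cadherins are calcium-dependent adhesion proteins, and the clustered protocadherins give each neural cell a surface identity. Of 75 cadherin and protocadherin genes tested, 61 rose (81.3%, against 19.7% of all genes) and none fell, with a median log2 change of 0.90. All 21 tested beta protocadherins rose (median 1.32), with no overlap between genotypes for any of them, as did 20 of 22 gamma (0.72) and 5 of 8 alpha members (1.45). Without mutant culture 3 the counts were 21, 18 and 3. Pcdhb9 was at 72.4, 44.7, 47.9 and 83.3 in wild-type and 262, 197, 313 and 246 in mutant cultures (log2 change 2.05 ± 0.24, limma adjusted p = 0.00214), and Pcdhb18 at 162, 179.7, 172 and 182 and 348, 319, 446 and 376 (1.08 ± 0.14). Outside the clusters Pcdh19 went from 791, 824, 791 and 863 to 1368, 1517, 1536 and 1366 (0.82 ± 0.09, limma adjusted p = 0.00139). The mutant cultures lay above the wild-type ones for these 3 genes, for 3 of the alpha and for 19 of the gamma members. Of the 75, 28 rose with the Y-linked covariate. Alpha and gamma members share their last exons and beta members are close copies, so counts of single members are uncertain where reads fit several. Chromosome 18, which holds the clusters, had the highest share of rises of any chromosome, 26.6% of 417 genes, and 17.8% of the 366 left without them.

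Matrix genes rose beside them. Of 37 collagen chains 23 rose (62.2%, against 19.7% of all genes) and none fell, with a median log2 change of 0.96. Of 11 laminin chains 6 rose (54.55%, median 0.88), and of 42 proteoglycans and their partners 23 rose (54.8%, median 0.57) and 2 fell. Col6a1 was at 1588, 972, 670.2 and 1160 in wild-type and 3278, 2447, 6084 and 2470 in mutant cultures (log2 change 1.66 ± 0.32, limma adjusted p = 0.00464) and Col5a2 at 4672, 3229, 2227 and 4194 and 9495, 7239, 16239 and 7350 (1.47 ± 0.28). Both genotypes were separate, with mutant culture 3 highest and wild-type culture 3 lowest. The muscle and nerve laminin gene Lama2 rose by 1.67 ± 0.28. Cspg5, a brain chondroitin sulfate proteoglycan gene, went from 16691, 16985, 12237 and 16858 to 41665, 27627, 54755 and 46652 (1.41 ± 0.20, limma adjusted p = 0.00257), and the small proteoglycan gene Fmod from 15.1, 8.90, 6.77 and 15.1 to 73.0, 71.7, 307 and 90.1 (3.22 ± 0.47). Of 39 matrix proteases and inhibitors 18 rose (46.15%) and 2 fell, or 15 and 1 without mutant culture 3. Timp2, an inhibitor of matrix metalloproteinases, was at 7320, 6917, 6067 and 8360 against 14439, 14024, 16216 and 15045 (1.07 ± 0.10, limma adjusted p = 0.000911), and the metalloproteinase gene Mmp19 rose by 1.29 ± 0.17. Of 25 integrins 9 rose (36%, against 19.7% of all genes) and 1 fell. Itga8 (0.98 ± 0.14), Itga3 (2.13 ± 0.37) and Itgav (0.72 ± 0.13) were among those that rose. Without mutant culture 3, 13 of 35 collagens rose. With the Y-linked covariate no collagen passed while their median was 0.94, and 1 laminin, 6 proteoglycans, 6 proteases and inhibitors and 1 integrin rose. Of 12 pericyte and fibroblast markers, which share Col1a1, Col1a2 and Col3a1 with the collagen list, 4 rose (33.3%), or 2 without mutant culture 3. They summed to 3871 to 7493 in wild-type and 8200 to 12690 in mutant cultures. Their part in the matrix result was not tested. In RNA from whole cultures, fewer cells of a type and less RNA per cell cannot be told apart.

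Guidance molecules and channels of excitable cells followed the same direction. Semaphorins steer axons and migrating cells through plexins and neuropilins, and 19 of 30 of these genes rose with none lower (median log2 change 0.49). Sema3c was at 950.2, 943, 778 and 1030 and 1741, 1672, 2401 and 1787 (log2 change 1.03 ± 0.14, limma adjusted p = 0.00254), Sema3e rose by 1.79 ± 0.29 and Sema6a by 0.66 ± 0.12. Of 18 ephrins and Eph receptors 5 rose (27.8%, against 19.7% of all genes), or 3 without mutant culture 3 and 0 with the Y-linked covariate. Of 29 voltage-gated sodium and calcium channel genes 16 rose and none fell (0.56), led by Cacng7 (4874, 4241, 3727 and 3511 against 8890, 8826, 8217 and 7961, 1.06 ± 0.11, limma adjusted p = 0.00114). Potassium channels were divided, with 20 of 69 higher and 8 lower. The calcium-activated channel gene Kcnn2 was at 112, 198, 191 and 205 and 605, 358, 987 and 606 (1.80 ± 0.30, limma adjusted p = 0.00326). Under quantile normalization 13 rose and 12 fell, and without mutant culture 3, 15 rose and 5 fell. Glutamate and GABA receptor subunits were higher for 12 of 37 and lower for 3. Grid1, an orphan delta glutamate receptor gene, went from 1049, 1021, 1037 and 966 to 2231, 1775, 2684 and 2064 (1.09 ± 0.12, limma adjusted p = 0.00169) and the AMPA receptor gene Gria4 from 709, 1545, 1189 and 1522 to 3578, 2623, 5107 and 3894 (1.64 ± 0.26). Grin2b, an NMDA receptor gene of neurons, fell (log2 change -0.65 ± 0.17). Zinc finger genes named Zfp, a large family set beside these for contrast, were at 27 higher and 27 lower of 362, below the shares of all genes, at 13 and 17 without mutant culture 3 and at 19 and 65 under quantile normalization. In the fit with the Y-linked covariate 5 semaphorin genes, 6 sodium and calcium channels, 3 potassium channels and 6 glutamate and GABA receptor subunits rose.

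In the YAP and TEAD, BMP and TGF-beta and Wnt lists more members rose than fell. Of 20 YAP and TEAD target genes 13 rose (65%, against 19.7% of all genes) and none fell, with a median log2 change of 0.61. Those that rose included the tissue factor gene F3 (0.74 ± 0.12), the membrane repair gene Myof (1.45 ± 0.25) and the kinase gene Lats2 (0.59 ± 0.11). Of 44 BMP and TGF-beta pathway genes 19 rose (43.2%) and 1 fell (median 0.42). The secreted BMP antagonist gene Chrd was at 222, 141, 108 and 174 in wild-type and 466, 352, 485 and 351 in mutant cultures (log2 change 1.38 ± 0.22, limma adjusted p = 0.00313), Tgfb1 at 536, 597, 323 and 539 and 986, 1347, 1312 and 829.8 (1.17 ± 0.22), and Id2, a BMP target, rose by 0.64 ± 0.12. For the Wnt pathway 16 of 47 rose (34%, against 19.7% of all genes) and 3 fell. Lgr5, a receptor of R-spondins, was at 248, 283, 339 and 307 and 648, 679, 681 and 443 (1.04 ± 0.17, limma adjusted p = 0.00309). Of 16 Hedgehog genes 4 rose, Boc (1.11 ± 0.17) and Ptch1 (0.51 ± 0.10) among them, a share near the 19.7% of all genes, and 1 fell. Feedback genes of growth factor receptors and ERK were higher for 10 of 27 (37%) and lower for none, and higher for 5 of 27 without mutant culture 3. Etv5 (0.62 ± 0.13), Spry1 (0.43 ± 0.11) and Igf1r (0.81 ± 0.22) were among those that rose. The receptor tyrosine kinase gene Ret was at 54.5, 42.7, 21.7 and 37.1 and 378, 151, 736 and 414 (3.26 ± 0.44, limma adjusted p = 0.00257), and all 4 mutant cultures were above all wild-type ones. Nov, a secreted matrix protein gene, rose by 3.05 ± 0.58. In the insulin and IGF list 8 of 25 rose (32%) and 1 fell. That member was Grb10, an adaptor that dampens insulin receptor signalling, which fell (log2 change -1.50 ± 0.28). The members that rose with the Y-linked covariate numbered 1 for YAP and TEAD targets, 2 for the BMP and TGF-beta list, 2 for Wnt, 1 for Hedgehog, 0 for the ERK feedback list and 1 for the insulin and IGF list. In the same order, the list medians were 0.55, 0.39, 0.26, 0.23, 0.33 and 0.31 with it and 0.61, 0.42, 0.26, 0.15, 0.29 and 0.26 without it.

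Among Notch and patterning genes a few stem cell regulators fell, but neither list fell as a whole. Of 33 forebrain patterning and interneuron transcription factors 7 rose and 5 fell (21.2% and 15.2%, median log2 change 0.18). The shares of all genes were 19.7% and 20.7%. In the fit with the Y-linked covariate 1 of this list rose and 1 fell. Hes5, a Notch target that keeps NSCs undifferentiated, was at 419, 358, 415 and 256 in wild-type and 110.3, 142, 59.5 and 73.3 in mutant cultures and fell (log2 change -1.95 ± 0.28, limma adjusted p = 0.0026). Hes1 fell (log2 change -0.36 ± 0.09). They were the 2 of 30 tested Notch genes that fell, and 8 rose, near the share of all genes, such as Dtx1 (0.45 ± 0.09) and Dner (0.56 ± 0.15), or 5 without mutant culture 3 and 2 with the Y-linked covariate. Gsx2, a homeobox gene of the lateral ganglionic eminence lineage, was at 26.2, 14.7, 30.5 and 27.4 and 1.40, 8.85, 2.47 and 7.91 and fell (log2 change -2.26 ± 0.50, limma adjusted p = 0.00787), and the interneuron factor gene Dlx2 went from 249, 245, 207 and 186 to 128, 105, 89.6 and 143 and fell (log2 change -0.93 ± 0.19). No mutant culture overlapped a wild-type culture for Hes5, Gsx2 or Dlx2. Among 15 SOX factors Sox9 (0.68 ± 0.14), Sox10 (0.72 ± 0.19) and Sox4 (0.57 ± 0.09) rose and 2 fell, Sox3 (-0.65 ± 0.17) among them, or 1 without mutant culture 3. Of the 16 NSC markers 1 rose and 4 fell, and the median was -0.01, or 0.09 with scaling by library totals. Sox2 had a log2 change of 0.10 ± 0.08 and Nes of 0.15 ± 0.14, and neither passed the test.

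Many genes that build the cell's protein, RNA and nucleotide supply fell. The list of cytosolic aminoacyl-tRNA synthetases, the enzymes that charge tRNAs, had 21 of 23 members lower and none higher (91.3%, against 20.7% of all genes, median log2 change -0.56). Mitochondrial ribosomal proteins had 71 of 78 lower (-0.46), proteasome subunits 33 of 37 (-0.37), subunits of RNA polymerases I and III 19 of 28 (-0.45), and mitochondrial synthetases 9 of 17 (-0.39). None of these lists had a member that rose. Mrps27 was at 6553, 7241, 7176 and 6190 in wild-type and 3559, 4632, 2848 and 4256 in mutant cultures and fell (log2 change -0.85 ± 0.14, limma adjusted p = 0.00327), the proteasome gene Psma5 went from 11076, 11617, 11217 and 11219 to 7480, 8287, 7347 and 8259 (log2 change -0.53 ± 0.07), and the methionyl-tRNA synthetase gene Mars fell (log2 change -0.71 ± 0.11). Mutant culture 3 was lowest for all 3 genes. Nuclear-encoded respiratory chain subunits, which lie in the same organelle as the mitochondrial ribosomes, did not share this fall. Of 79 subunits 11 fell (13.9%, below the 20.7% of all genes) and 2 rose (median -0.19). Without mutant culture 3 only 2 of these fell, with scaling by library totals 1, and with the Y-linked covariate 0. Scaling by library totals left 25 proteasome and 65 mitochondrial ribosomal genes lower. The Y-linked covariate left 4 and 16, with medians of -0.38 and -0.47, and 10 cytosolic synthetases, 3 mitochondrial synthetases and 5 polymerase subunits.

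Nucleotide and RNA processing genes went the same way. Of 30 purine and pyrimidine synthesis genes 27 fell (90%, against 20.7% of all genes) and 1 rose (median log2 change -0.68). The folate enzyme gene Mthfd2 was at 7953, 8201, 8746 and 6775 and 3365, 4701, 2266 and 3881 and fell (log2 change -1.20 ± 0.19, limma adjusted p = 0.00303), and Impdh2, the rate-limiting enzyme of guanine nucleotide synthesis, went from 20754, 19580, 21043 and 18295 to 11280, 13378, 9705 and 12288 and fell (log2 change -0.78 ± 0.11). Mutant culture 3 was lowest for both and mutant culture 2 nearest to wild type. Sm and LSm proteins of the spliceosome fell for 25 of 32, SR and hnRNP regulators for 25 of 33 and nucleoporins for 14 of 22, with no member higher in any of these lists. Hnrnpc was at 35178, 35945, 35085 and 33835 and 20301, 24408, 18453 and 24843 and fell (log2 change -0.68 ± 0.10). Chaperones were divided by kind. All 8 subunits of the CCT chaperonin, which folds actin and tubulin, fell, Cct4 (-0.73 ± 0.11), while the small heat shock genes Cryab (1538, 2979, 2807 and 2621 against 7504, 4963, 4867 and 6977, log2 change 1.31 ± 0.22, limma adjusted p = 0.00331) and Hspb1 (1.55 ± 0.38) and the inducible Hspa1a (1.59 ± 0.39), which shares reads with its near-identical copy Hspa1b, rose. In the fit with the covariate 8 nucleotide synthesis genes, 8 Sm and LSm proteins, 6 splicing regulators and 1 nucleoporin fell. Tubulins fell for 9 of 22, or 5 without mutant culture 3 and 0 with the Y-linked covariate, and rose for 2, the neuronal and glial Tubb4a (1.28 ± 0.14) and Tuba4a (1.53 ± 0.21).

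**Figure D4:**
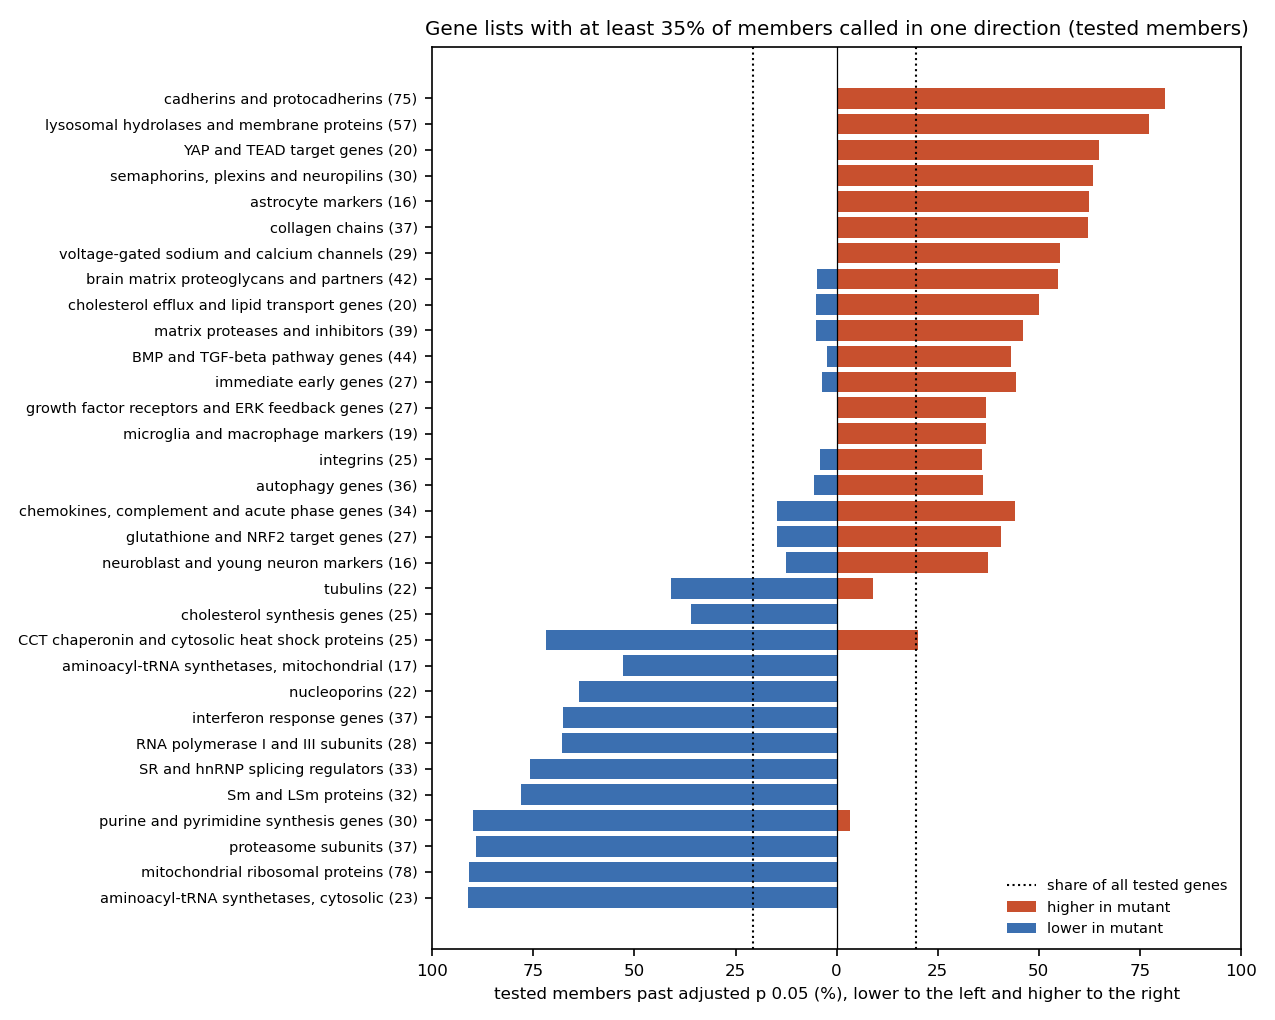
Share of tested members that rose (right) or fell (left) in mutant cultures for the 32 lists with at least 15 tested members and at least 35% of them called in a direction, with tested members in brackets. Dotted lines mark the shares over all genes, 19.7% higher and 20.7% lower. Cadherins and lysosomal genes extend farthest to the right. Cytosolic aminoacyl-tRNA synthetases, mitochondrial ribosomal proteins and purine and pyrimidine synthesis genes extend farthest to the left, with proteasome subunits next.

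Lysosomal genes and many genes of lipid efflux rose. Of 57 lysosomal hydrolases and membrane proteins 44 rose and none fell (77.2%, median log2 change 0.56). The bone-resorbing protease gene Ctsk was at 103, 110.4, 86.7 and 94.1 in wild-type and 303, 290.4, 332 and 493 in mutant cultures (log2 change 1.81 ± 0.19, limma adjusted p = 0.00131), and the progranulin gene Grn at 6179, 6007, 4663 and 6558 and 12129, 13297, 14835 and 11160 (1.14 ± 0.12). The proton pump as a whole moved less, with 5 of 20 V-ATPase genes higher (25%, against 19.7% of all genes), and the subunit gene Atp6v0a1 rose by 0.56 ± 0.12. Abca1 and Abcg1, which export cholesterol to lipoproteins, went from 5375, 3434, 3001 and 4413 to 10249, 11630, 19181 and 11080 (1.67 ± 0.22, limma adjusted p = 0.00257) and from 339, 335, 239.9 and 312 to 638, 1123, 826 and 815. Apod, a lipid carrier gene of glia, was at 171, 200.1, 184 and 201 and 725, 489, 1187 and 1337 (2.19 ± 0.28, limma adjusted p = 0.00254). The mutant cultures were separate from the wild-type cultures for each of these, and 10 of 20 genes of lipid efflux and transport rose while 1 fell. Of 25 cholesterol synthesis genes 9 fell (36%, against 20.7% of all genes), Fdps (-0.66 ± 0.14) among them, and none rose. Without mutant culture 3, 4 fell, and with scaling by library totals 5 fell. Fatty acid synthesis genes had 5 of 18 higher, Fasn (0.69 ± 0.19) and Srebf1 (0.44 ± 0.13) among them. That share of 27.8% was not far from the 19.7% of all genes, and the list median was 0.04. Ferritin heavy chain Fth1, which stores iron, was at 134835, 157263, 112886 and 160399 and 247262, 213618, 327719 and 322324 (0.97 ± 0.16, limma adjusted p = 0.00327), and the antioxidant genes Sod3 (1.37 ± 0.23) and Gstm1 (1.09 ± 0.18) rose in a list in which 11 of 27 rose and 4 fell, or 7 and 1 without mutant culture 3. The Y-linked covariate left 17 lysosomal genes, 3 lipid efflux genes and 1 gene of this last list higher. It left 3 V-ATPase genes and 1 fatty acid synthesis gene higher and 0 cholesterol synthesis genes lower.

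In the promoter window of each gene (250 bases before to 50 after its start, RefSeq, GRCm38.p6, available for 11852 tested genes), 5 short motifs were searched on both strands. The CLEAR core CACGTGAC, the site of lysosomal transcription factors, was present in 12 of 45 lysosomal promoters (26.7%, against 4.49% of all). Among lysosomal genes that rose it was in 29.4% of 34, and among the others in 2 of 11. It was in 4.39% of all promoters of genes that rose. The stretches of the lysosomal genes with the smallest p-values that held it before the start are shown to place the motif, with the core, or its reverse complement, in capitals.

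Ctsd, chr7:142388055-142388077, minus strand: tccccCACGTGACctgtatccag
Ctsa, chr2:164833749-164833772, plus strand: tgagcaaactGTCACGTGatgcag
Lgmn, chr12:102439126-102439153, minus strand: tggaatgtctGTCACGTGgtccatttta
Lamp1, chr8:13159123-13159150, plus strand: tgccgactggCACGTGACcacatcacgt

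Ctsa, a protective protein of lysosomal glycosidases, was at 5894, 6170, 5131 and 6356 in wild-type and 11908, 10001, 14182 and 10087 in mutant cultures (log2 change 0.96 ± 0.12, limma adjusted p = 0.00254), the cysteine protease gene Lgmn at 4588, 4382, 3580 and 4510 and 9821, 8431, 15495 and 9330 (1.30 ± 0.17), and the membrane protein gene Lamp1 rose by 0.59 ± 0.09. The cultures of each genotype were separate for all 3. The sterol core TCACNCCAC was in 1 of 17 cholesterol synthesis promoters and 1.43% of all. The E2F core TTTNNCGC was in 5 of 27 purine and pyrimidine promoters (18.5%, against 9.46% of all) and in 12.9% of all promoters of genes that fell, against 7.45% of those of genes that rose. The amino acid response core TGATGNAAT was in 3 of 16 cytosolic synthetase promoters (18.8%, against 0.607% of all). Among synthetase genes that fell it was in 2 of 14, and among the others in 1 of 2. It was in 0.397% of all promoters of genes that fell. A match is a description of letters in this window.

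Interferon-responsive genes, which cells switch on against viruses, fell together. Of 37 tested 25 fell and none rose (67.6%, against 20.7% of all genes, median log2 change -1.05). Isg15, a ubiquitin-like modifier, was at 679, 939, 481 and 440.5 in wild-type and 98.3, 138, 127 and 127 in mutant cultures and fell (log2 change -2.31 ± 0.24, limma adjusted p = 0.00117). Rtp4 went from 586, 703, 434 and 334 to 50.7, 99.2, 101 and 102 and fell (log2 change -2.53 ± 0.29). Wild-type cultures 1 and 2 were above wild-type cultures 3 and 4 for both genes, and the mutant cultures were below all of them. Ifi44 fell (log2 change -3.16 ± 0.32), Oasl1 (-2.38 ± 0.30), Oasl2 (-2.56 ± 0.37), Usp18 (-2.27 ± 0.30), Gbp3 (-1.39 ± 0.13) and Mx1 (-2.14 ± 0.34). With the Y-linked covariate 14 of 37 fell, and without mutant culture 3, 24. The interferon-stimulated response element core GAAANNGAA was in 14 of 25 promoters of the list (56%, against 8.59% of all), in 9 of 16 members that fell and in 5 of 9 that did not pass. Over all genes it was in 8.69% of promoters of genes that fell. In the stretches below a match to the core, or its reverse complement, is in capitals. Gbp3, Isg15 and Ifit1 each hold a further match that overlaps it and is left partly in lower case. The members with the smallest p-values that held the core before the start, leaving out the near-identical copies Ifit3 and Ifit3b, read as follows.

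Gbp3, chr3:142559990-142560018, plus strand: aggacacagtTTCAGTTTCtatttcccag
Isg15, chr4:156200878-156200906, minus strand: tatgccgtagGAAAAGGAAaccgaaacag
Ifit1, chr19:34640770-34640798, plus strand: aactgcaggcTTCAGTTTCactttccagt
Ifih1, chr2:62646349-62646377, minus strand: agaattcgcgTTCCCTTTCctgtttctca

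The sensor gene Ifih1 was at 287, 392, 289 and 287 in wild-type and 105, 152, 211 and 149.6 in mutant cultures and fell (log2 change -1.05 ± 0.21, limma adjusted p = 0.00581). Ifit1, which binds viral RNA caps, was at 132, 415, 166 and 146 against 46.6, 46.3, 48.0 and 47.2. The mutant values of Ifit1 were nearly equal and the wild-type values spread, and wild-type culture 2 was highest for both genes.

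Inflammatory genes divided into those that fell and those that rose. Ccl5, a chemokine gene, was at 134, 126, 136 and 110.5 in wild-type and 15.1, 33.7, 8.20 and 24.0 in mutant cultures and fell (log2 change -2.75 ± 0.37, limma adjusted p = 0.00257). The chemokine genes Ccl3 (log2 change -2.36 ± 0.56), Ccl4 (-2.29 ± 0.60) and Cxcl10 (-1.42 ± 0.23), the acute phase gene Saa3 (-2.02 ± 0.35), the cytokine gene Tnf (-2.05 ± 0.46) and Acod1 (-2.78 ± 0.51), which makes itaconate in activated macrophages, fell as well. Mutant culture 2 was nearest to wild type for Ccl3, Tnf and Acod1, at 190.0, 201 and 211. Ccl4 overlapped between the genotypes. In the list of 34 chemokine, complement and acute phase genes, 15 rose and 5 fell (44.1% and 14.7%, against 19.7% and 20.7% of all genes). The copper carrier and ferroxidase gene Cp was at 5255, 6392, 2508 and 6911 and 20667, 13176, 35725 and 23318 (log2 change 2.15 ± 0.35, limma adjusted p = 0.00313), the complement gene C3 at 607, 338, 100.1 and 450.1 and 877, 1046, 2754 and 2331 (2.32 ± 0.56), and C4b at 1188, 635, 278 and 692 and 3207, 1523, 7454 and 2197 (2.27 ± 0.53). Wild-type culture 3 was lowest and mutant culture 3 highest for each of these, and without mutant culture 3, 9 of the list rose and 6 fell, and with the Y-linked covariate 1 rose and 3 fell. The acute phase serpin gene Serpina3n (2.35 ± 0.70) and the iron carrier gene Lcn2 (3.24 ± 0.92) rose, but Lcn2 did not pass without mutant culture 3 (limma adjusted p = 0.101), nor Serpina3n without wild-type culture 3 (limma adjusted p = 0.0798). Antigen presentation genes were higher for 6 of 19 (31.6%, against 19.7% of all genes) and lower for none, with Cd74 at 10.4, 5.41, 4.60 and 10.3 and 35.3, 28.7, 308 and 56.1 (3.00 ± 0.66, limma adjusted p = 0.00761) and Tap2 at 1738, 1340, 841 and 1350 and 1978, 1777, 2801 and 2101 (0.74 ± 0.21). Under the Y-linked covariate 0 of the 19 rose, and neither Cd74 nor Tap2 passed.

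Myeloid markers were present in every culture and not evenly. The 19 microglia and macrophage markers summed to 5655 to 8899 in wild-type cultures and to 10860, 34780, 11020 and 19850 in mutant cultures 1 to 4. Of these 7 rose (36.8%, against 19.7% of all genes), or 0 with the Y-linked covariate, and none fell. Ctss (369, 427, 253 and 473 against 936, 2407, 794 and 1670, log2 change 1.82 ± 0.33, limma adjusted p = 0.00418), Itgam (1.81 ± 0.38) and Cd68 (1.62 ± 0.39) were among those that rose. C1qa, a complement gene of microglia, overlapped at 856, 950.2, 570.1 and 961 and 806, 3750, 344 and 2352 (limma adjusted p = 0.473), and Aif1 had a log2 change of -0.65 ± 0.55 and did not pass, though without mutant cultures 2 and 4 it was lower (log2 change -1.60, limma adjusted p = 0.0221). Clec4n, a lectin receptor gene of myeloid cells, went from 27.2, 34.0, 17.9 and 53.035 to 235, 309, 515 and 348 (3.42 ± 0.33, limma adjusted p = 0.000964), and the chitinase-like gene Chil3 was listed at 0 in every wild-type library and at 846, 185, 10.7 and 40.7 in the mutant ones. Ccl6 rose by 3.15 ± 0.47. These genes differed in which mutant culture was highest, mutant 1 for Chil3, mutant 2 for Ctss and mutant 3 for Clec4n. The part of myeloid cells in the inflammatory, lysosomal and Atp6v0d2 results was not tested. Without mutant cultures 2 and 4, which had the highest marker sums, 3220 genes were higher and 3558 lower.

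**Figure D5:**
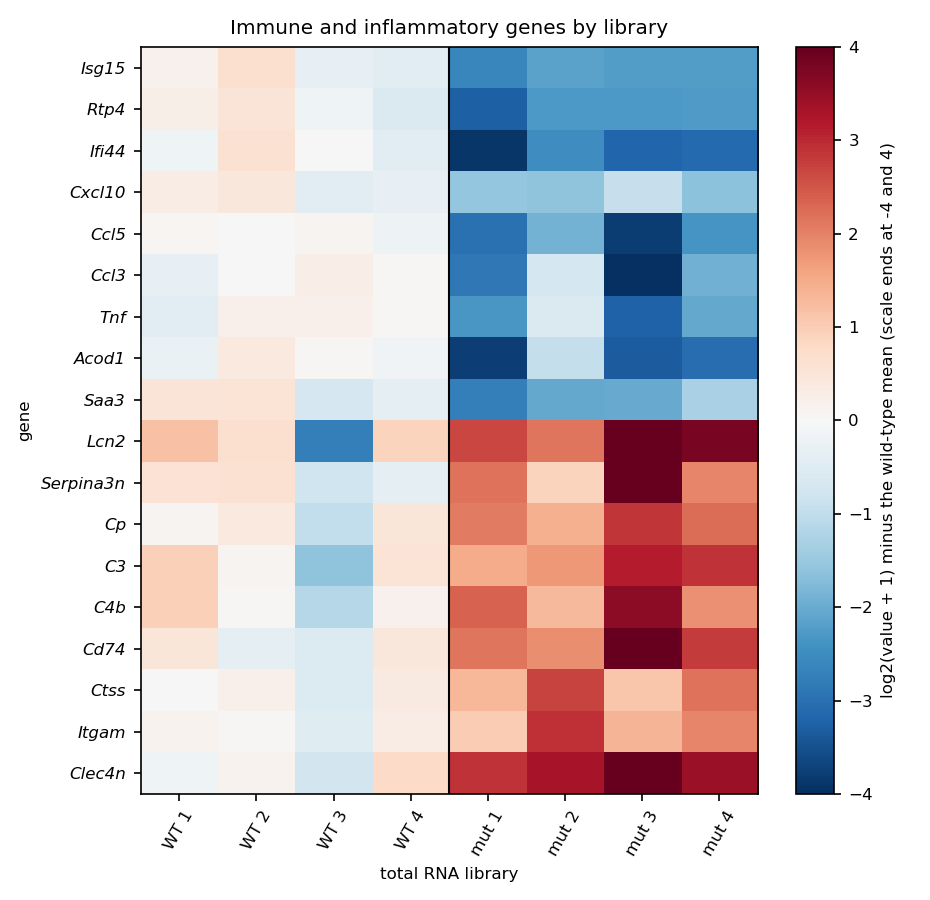
Deviation of 18 immune and inflammatory genes from the wild-type mean in each total RNA library, on the log2(value + 1) scale (blue lower, red higher, with the colours ending at -4 and 4). Isg15 to Saa3 are lower and Lcn2 to Clec4n higher in mutant cultures, and mutant culture 2 is palest for Ccl3, Tnf and Acod1.

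Glial and some neuronal markers rose. Of 12 tested markers of myelinating oligodendrocytes 11 rose (91.7%, against 19.7% of all genes), with a median log2 change of 1.50. Mag went from 158, 107, 70.2 and 119 to 602, 599, 735 and 447 (2.42 ± 0.24, limma adjusted p = 0.00114) and Enpp6 rose by 1.79 ± 0.26. Of 14 precursor markers 7 rose (50%), among them Tnr (0.91 ± 0.16), Ptprz1 (0.47 ± 0.09) and Cspg4 (1.14 ± 0.26). Of 16 astrocyte markers 10 rose (62.5%, median 0.84), the sodium pump subunit gene Atp1b2 (8653, 8646, 6541 and 8965 against 26858, 16383, 39730 and 19944, 1.58 ± 0.24) and the calcium-binding gene S100b (1.94 ± 0.35) among them. The covariate left 8 myelinating, 2 precursor and 3 astrocyte markers higher. Among young neuron markers 6 of 16 rose and 2 fell (37.5% and 12.5%), with 0 lower without mutant culture 3 and 4 higher with the Y-linked covariate. Stmn2, a growth cone gene, was at 126, 44.7, 40.7 and 53.6 and 352, 264, 759.5 and 270.4 (2.63 ± 0.41, limma adjusted p = 0.00297) and the GABA synthesis gene Gad1 at 179.5, 179, 278 and 218 and 691, 338, 808 and 516 (1.41 ± 0.26). Mature neuron markers had 1 higher and 1 lower of 11 (9.09% each, below the 19.7% and 20.7% of all genes). Of 10 ependymal markers 1 rose (10%), of 8 endothelial markers 3 rose (37.5%), and of 7 choroid plexus markers 2 rose (28.6%), or 1 without mutant culture 3. None of these lists had a member higher with the Y-linked covariate. Ttr, which encodes transthyretin, was at 3.02, 5.94, 5.95 and 3.15 and 144, 8.74, 2281 and 267 (5.01 ± 1.31), and Folr1 at 4.87, 6.22, 3.55 and 6.10 and 18.8, 7.54, 22.2 and 13.9. Mutant culture 3 held the highest Ttr value and mutant culture 2 lay close to the wild-type cultures. Npvf, which encodes a neuropeptide precursor, was at 20.9, 26.8, 16.2 and 36.0 and 425, 85.4, 1014 and 199.6 (3.56 ± 0.63, limma adjusted p = 0.0038).

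The mutant cultures differed among themselves in early response genes. Of 27 tested 12 rose and 1 fell (44.4% and 3.7%, against 19.7% and 20.7% of all genes), with a median log2 change of 0.54. Without mutant culture 3, 4 rose, and with the Y-linked covariate 3 rose. Klf2, a transcription factor gene responsive to mTOR and flow, was at 217, 275, 231 and 225 in wild-type and 4179, 539, 4405 and 1341 in mutant cultures (log2 change 3.01 ± 0.59, limma adjusted p = 0.0055). Klf4 was at 536, 486, 447 and 535 and 2205, 712, 4463 and 1094 (1.73 ± 0.46) and the stress gene Atf3 at 419.9, 428, 369 and 489 and 1436, 681, 2126 and 795 (1.42 ± 0.31). Mutant cultures 1 and 3 were above mutant cultures 2 and 4 for all 3 genes, whereas the wild-type cultures stayed close to each other. The genes of the mTOR pathway itself were spread, with 8 of 43 higher and 10 lower (median -0.04). These shares, 18.6% and 23.3%, were near the 19.7% and 20.7% of all genes. Castor2, an arginine sensor gene, rose by 0.87 ± 0.17, and Mlst8, a shared subunit of mTOR complexes, fell (log2 change -0.41 ± 0.09). Neither passed with the Y-linked covariate, under which 0 of the 43 genes rose and 1 fell.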

How the data were processed

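Total RNA was taken from 4 wild-type and 4 mutant V-SVZ cultures, poly(A)-selected and sequenced without strand information. Per the study's methods, the authors trimmed reads with FastQ Toolkit 2.2.5, aligned them with STAR 2.6.1A to mm10 and normalized gene counts with DESeq2, and deposited these values, which are treated here as signal and not as counts. Date-like symbols (26 rows) were left out. Values were tested as log2(value + 1) with limma 3.58.1 (R 4.3.3, trend and robust moderation, genotype only) over genes with a mean of at least 10, and p-values were adjusted by the Benjamini-Hochberg method over all 14967. The fit was tested on simulated data. Because 1 was added before the logarithm, log2 changes of low genes are understated. Errors after ± are SEs.

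Named genes were Tsc2, the 12 of smallest p and 10 of largest fold in each direction with a mean of at least 100 and no overlap, and, of each of 70 lists, up to 4 members of smallest p and those changed by at least 2 on the log2 scale, with marker and Y-linked genes. Ctsa, Lgmn, Lamp1, Ifih1, Ifit1, Hspa1a, Hspb1, Rnps1, Telo2, Itpr3 and Fam234a were chosen after their values were seen. The genes and lists were chosen with earlier results of these data known. Alternatives covered pseudocounts, filters, scaling (library totals, TMM, quantile), moderation, a replicate block, a Y-linked covariate and leaving out cultures. Promoters came from RefSeq (GRCm38.p6). Some genes that the rule named are not reported here. The 8 polysome-bound RNA libraries of the series were not used here.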

Additional observations from a re-analysis of the deposited data

Results flagged for a closer look

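In groups of 4 cultures a value was set apart where its gap to the nearest of the others exceeded Dixon's 95% critical share of the range. Of 298 groups examined, 15 had such a value (5.03%), against 5% expected by chance, so no pattern was read from them. For mutant culture 3 these were the number of genes above 0 (21145), Fmod (307 normalized reads), Lama2 (1608) and Cxcl10 (781), each the highest of the mutant cultures. Wild-type culture 3 was lowest of its group for Atp1b2 (6541), Cspg5 (12237), Fasn (27531), Lcn2 (231) and Sox3 (16089). Wild-type culture 1 was lowest for Fdps (20957) and Kcnn2 (112), and wild-type culture 2 was highest for Ifih1 (392). Among the other mutant cultures, culture 1 was lowest for Rtp4 (50.7), culture 2 for Sod3 (1316) and culture 4 for Lgr5 (443).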

How the results depend on the processing

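The counts of genes higher and lower stayed within 1.5 times 2944 and 3091 under the other pseudocounts, filters, scalings and moderation. With the Y-linked covariate 528 rose and 535 fell, and 49 of the 142 named genes that had passed no longer did, namely Atf3, C3, C4b, Castor2, Ccl3, Ccl4, Cd68, Cd74, Col5a2, Col6a1, Ctss, Dlx2, Dner, Etv5, F3, Fdps, Folr1, Fth1, Grb10, Grin2b, Gstm1, Hes1, Hspa1a, Hspb1, Id2, Igf1r, Itga3, Itgam, Itgav, Klf4, Lats2, Lcn2, Mlst8, Myof, Nov, Ptch1, Ptprz1, S100b, Sema6a, Serpina3n, Sox3, Sox9, Spry1, Srebf1, Tap2, Tgfb1, Tnf, Tnr and Ttr. Limiting calls to at least 2-fold left 919 and 173. Leaving out 1 culture gave 2075 to 3232 higher and 2115 to 3416 lower. At least 2-fold changes numbered 666 higher and 112 lower without mutant culture 3, and 506 and 108 when counted among genes with a mean of at least 100, both chosen after seeing the data. No named gene that passed the test changed sign under any setting run. Of those that did not pass, C1qa went from 0.61 to -0.63 on the log2 scale without mutant cultures 2 and 4, and Tsc2 (-0.10 to 0.02) and Uty (-4.56 to 0.35) changed sign with the Y-linked covariate. Of 36 list counts of at least 10, 35 moved by over 1.5 times with that covariate, 12 without mutant culture 1, 11 without wild-type culture 2, and 9, 9 and 7 without mutant culture 3, wild-type culture 3 and wild-type culture 4. With that covariate the list median went from 0.96 to 0.94 for collagen chains and from 0.56 to 0.51 for lysosomal genes. It went from 0.84 to 0.53 for microglia and macrophage markers and from 0.57 to 0.34 for chemokine, complement and acute phase genes. Of named genes that had not passed, Sox2 did so as higher with scaling by library totals or quantiles, Aif1 as lower without mutant cultures 2 and 4, and the Y-linked genes as lower without mutant culture 1 or with a replicate block. Higher genes were 48.8% of all calls and 62.9% with scaling by library totals. The deviations of same-numbered cultures correlated at 0.0212, 0.0888, -0.0832 and 0.101, so the numbers were not taken to pair the cultures. With a replicate block 2402 genes rose and 2339 fell, and Folr1, Lcn2, Serpina3n and Tap2 missed the threshold. Depth was read only from the smallest step of the values, and a count-based test was not run on values of this kind.

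By limma, Lcn2 missed the threshold without mutant culture 3 (adjusted p = 0.101), Serpina3n without mutant culture 1 (0.0553), wild-type culture 3 (0.0798) or wild-type culture 4 (0.0701), Srebf1 without mutant culture 1 (0.0576) or wild-type culture 3 (0.0506), Klf4 without wild-type culture 3 (0.0503) and Folr1 without that culture (0.0606) or under quantile normalization (0.159). Without mutant cultures 2 and 4, C3 (0.0568), Grin2b (0.0525) and Lcn2 (0.108) missed it, and Serpina3n did so with no filter on low values (0.0522). The causes were not tested.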
